A study of Homo sapiens with 6 samples.

Results

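The SLC25 genes encode the mitochondrial carriers, measured here in an established osteosarcoma line of human origin, 143B, after exposure to celastrol, a plant triterpene. Members were the protein-coding genes of the count table whose name is SLC25A and a number, which gave 46 of 22481 genes. SLC25A2 and SLC25A31 were not analysed here. The treated group was 3 wells that received celastrol for 24 h, and the control group was 3 wells grown for the same time. All wells were of 1 line with no other manipulation named, seeded together and grown for 24 h before treatment. The labels give no dose and no vehicle, and nothing says that the wells were separate cultures beyond the plate, so the spread behind each p-value is that among wells of 1 plate and may be technical.

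Most SLC25 proteins sit in the inner mitochondrial membrane and exchange a metabolite, nucleotide, cofactor or ion of the matrix for one of the space outside, by opening to one side and then the other. ADP/ATP carriers export the ATP made by respiration, the phosphate carrier brings in the phosphate used to make it, and citrate, aspartate and carnitine carriers join mitochondrial oxidation to synthesis in the cytosol. The family name covers 2 exceptions to the mitochondrial inner membrane among the members measured here, SLC25A17 of peroxisomes and SLC25A46 of the outer mitochondrial membrane.

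Library totals ran from 38408143 to 39453778 counts, so that a count of 0 allowed up to 3 counts, or 0.076 to 0.078 CPM, counts scaled to the library total. Of the mesenchymal markers, VIM, SPARC and CD44 were abundant, with 2541, 365 and 731 CPM in celastrol wells and 3411, 364 and 658 CPM in control wells. Others were lower, with COL1A1 at 13.1 and 8.29 CPM and RUNX2 at 18.2 and 33.9 CPM in celastrol and control wells. The mesenchymal marker COL1A2 and the markers of blood, endothelium and mature muscle had under 0.3 CPM on average in each group. The epithelial marker EPCAM was read at 6.89 and 6.04 CPM and the neural marker SYP at 4.16 and 4.54 CPM in celastrol and control wells. The epithelial marker KRT20, at 0.0083 and 0 CPM, and the neural marker GFAP, at 0.076 and 0 CPM, were near or at the floor in the same groups. In such bulk samples fewer cells of a kind and less RNA per cell cannot be told apart.

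With celastrol, 13 SLC25 genes rose and 8 fell of the 41 that passed the filter on low counts, and 23.6% and 24.8% of all genes tested did. The largest rises were in SLC25A45 and SLC25A20, carriers tied to carnitine, in the scarce SLC25A21 and in SLC25A13, an aspartate/glutamate carrier, and the largest falls were in SLC25A27, a relative of the uncoupling proteins, SLC25A35, SLC25A25 and the citrate carrier SLC25A1. Carriers of amino acids rose in 5 of 8 members, while none of 9 carriers of nucleotides and cofactors was called. The threshold for a call was an adjusted p of 0.05, taken from the quasi-likelihood test of edgeR and adjusted by Benjamini-Hochberg over every gene tested.

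These counts stood close to those of the transcriptome as a whole. Of the SLC25 genes tested 31.7% were called higher, 19.5% lower and 51.2% in either direction, and 48.4% of all 15387 genes tested were called in either direction. The median log2 fold change was 0.093 over the SLC25 genes and 0.000 over all genes tested, and the median absolute log2 fold change was 0.231 and 0.327. At a fold of 1.5 or more, 4 SLC25 genes were called higher and 3 lower, where 8.64% and 12.3% of all genes were. At a fold of 2 or more it was 1 in each direction, SLC25A45 and SLC25A27, where 3.28% and 6.05% of all genes were. The groups did not overlap in 22 SLC25 genes, or 53.7%, against 56.9% of all genes tested, with 14 members higher and 8 lower against 28.4% and 28.6% of all genes.

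**Figure D1:**
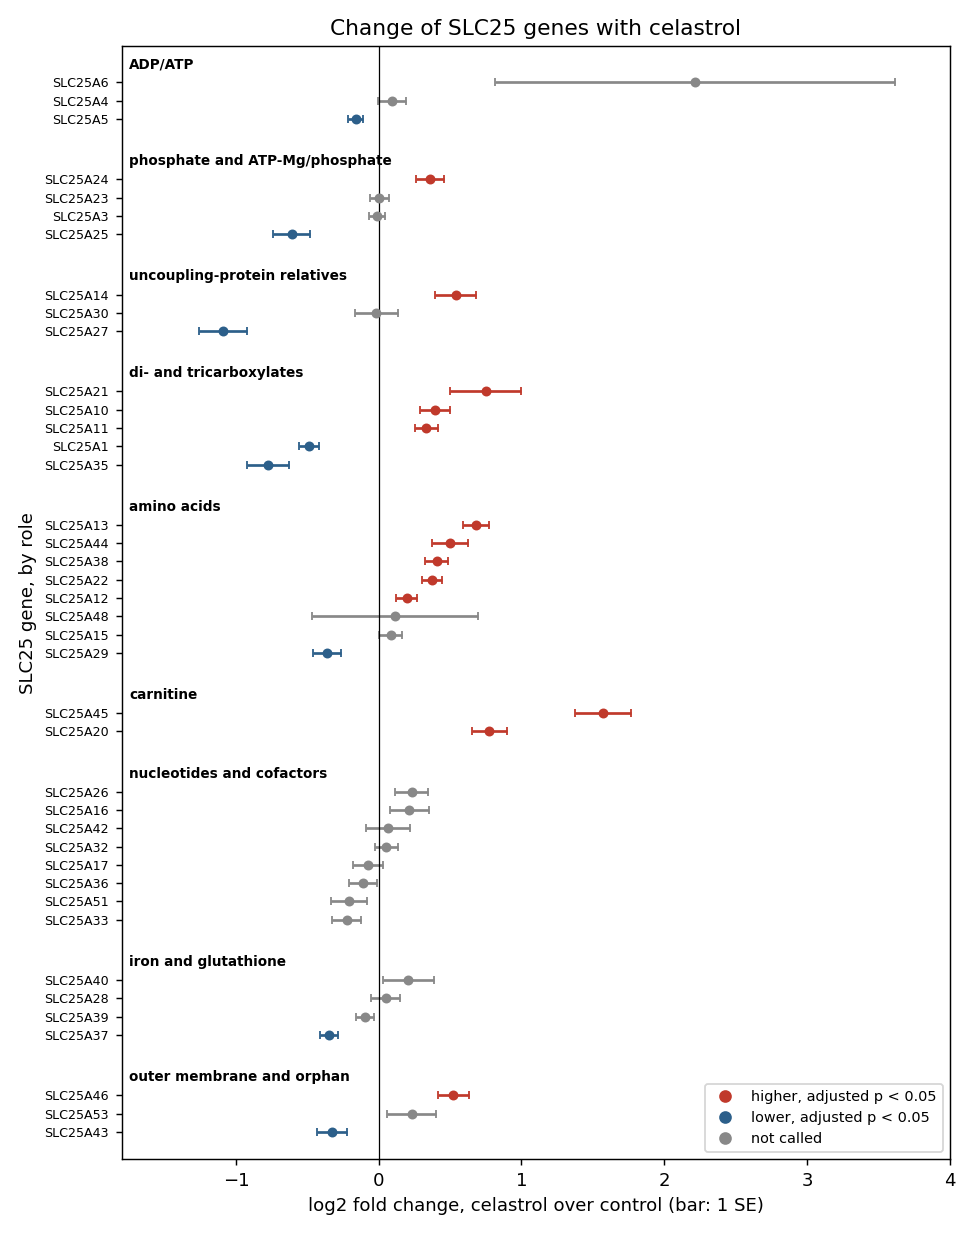
Log2 fold change (celastrol over control, x axis) of 40 of the 41 SLC25 genes tested, listed by role, with bars of 1 standard error, red for 13 genes called higher, blue for 8 called lower and grey for the 19 others plotted. Both genes of the carnitine group lie to the right of 0, and every plotted carrier of nucleotides and cofactors is grey and lies between -0.225 and 0.231.

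The other 5 members, SLC25A18, SLC25A34, SLC25A41, SLC25A47 and SLC25A52, had 0 to 12 counts in any library and were not tested. SLC25A18 is a glutamate carrier, SLC25A41 an ATP-Mg/phosphate carrier, SLC25A47 a liver-enriched carrier and SLC25A52 a relative of the NAD carrier SLC25A51. SLC25A48, a choline carrier, passed the filter with 8 to 18 counts a library and was not called (log2 fold change 0.11 ± 0.58 SE, adjusted p = 0.891).

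Levels spanned over 3 orders of magnitude. FPKM are the deposited values scaled by gene length and library total. SLC25A5 had 447 ± 13.1 FPKM in celastrol wells and 485 ± 14.7 FPKM in control wells (SD, n = 3 each). The order of genes on this scale depends on the length used for each. That length, implied by the counts and FPKM, was 1307 bases for SLC25A5 and 6343 for SLC25A3. In CPM, which uses no length, SLC25A5 had 643 and SLC25A3 526 in control wells. SLC25A5 encodes the ADP/ATP carrier of proliferating cells. It alone made up 44.4 to 45.9% of the summed FPKM of the family in celastrol wells and 48.1 to 49.3% in control wells. This share depends on the lengths used as well. In counts, control replicate 1 had 25231 for SLC25A5, 20331 for SLC25A3 and 101430 over the family. The summed FPKM also includes SLC25A6, whose uneven counts are given below. After SLC25A5, in FPKM of control wells, came the phosphate carrier SLC25A3 (81.8 ± 1.03 FPKM) and the glutathione carrier SLC25A39 (68.0 ± 1.97). Next were SLC25A1 (59.0 ± 3.27), the oxoglutarate carrier SLC25A11 (32.4 ± 3.47) and the mitoferrin SLC25A37 (21.9 ± 0.612).

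These 6 genes held 69.9 to 71.6% of the family's summed FPKM in celastrol wells and 74.6 to 75.6% in control wells. At the other end, 38 members reached a mean of 1 FPKM in celastrol wells and 37 in control wells. Neighbours in the order were apart in every control well for 15 of 45 pairs, among them every pair within the first 8 genes. From SLC25A38 at the tenth place to SLC25A13 at the twentieth, each member overlapped the next. With celastrol the first 5 places were the same, SLC25A37 stood at place 10 instead of 6, SLC25A13 at place 12 instead of 20, and SLC25A27 at place 35 instead of 27. As a share of counts, the family took 0.254 to 0.264% in celastrol wells and 0.252 to 0.261% in control wells, ranges that overlap.

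**Figure D2:**
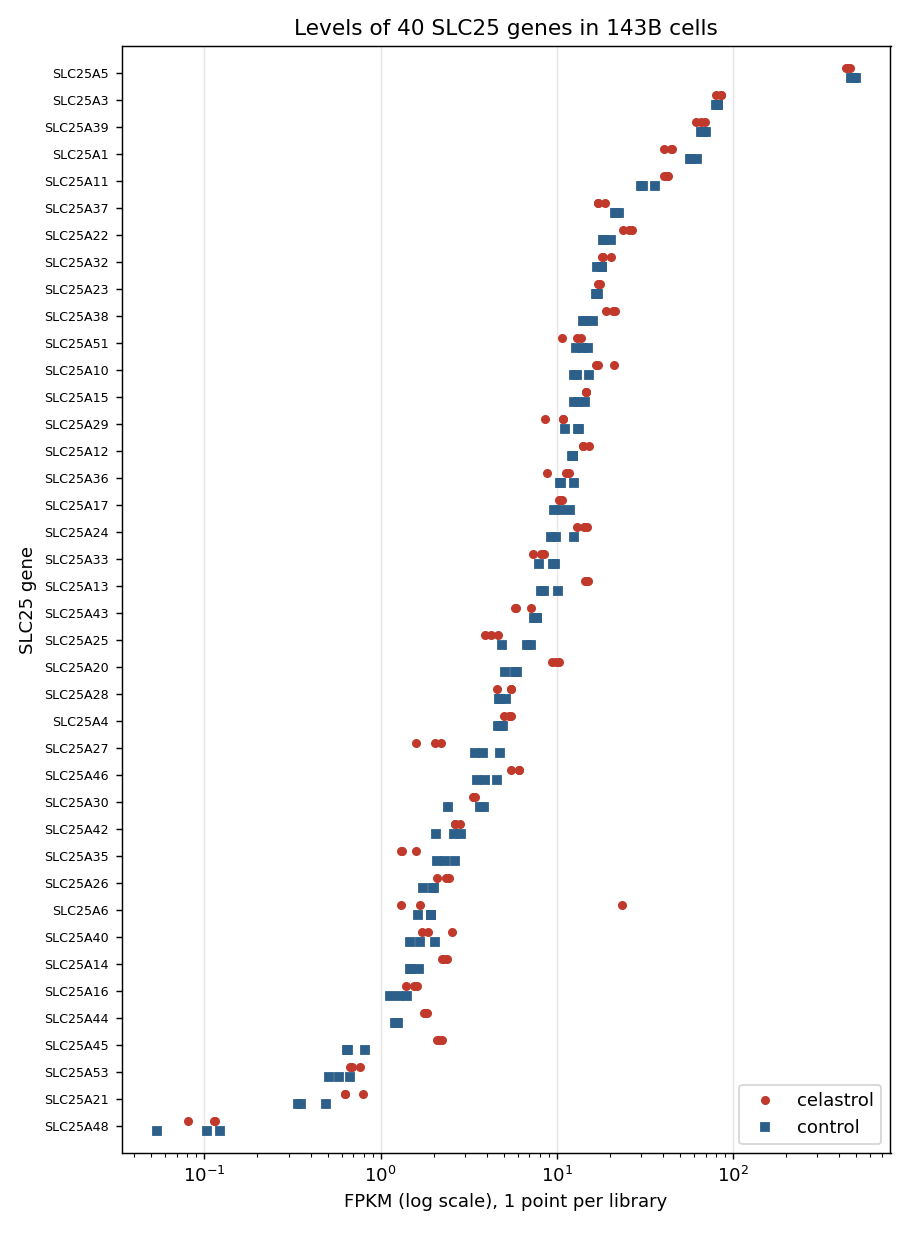
FPKM on a log axis (1 point per library, red circles for celastrol above blue squares for control) of 40 of the 41 SLC25 genes tested, ordered by their mean in control wells. SLC25A5 stands alone near 447 to 485 FPKM, and 1 celastrol point of SLC25A6 lies far to the right of its other 5.

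Among the ADP/ATP carriers, which exchange matrix ATP for cytosolic ADP, SLC25A5 was slightly lower with celastrol. Its values were 593, 569.5 and 566 CPM with celastrol and 656, 619 and 655 CPM in controls, scaled by TMM as in all CPM values of single genes here. Each celastrol well lay below each control well, and the log2 fold change was -0.16 ± 0.053 SE (adjusted p = 0.0177). That call was lost with scaling by library size alone (adjusted p = 0.0626), on log2 FPKM (0.053 and 0.0517 with pseudocounts of 1 and 0.1), without celastrol replicate 2 (0.0595) or 3 (0.0816), and without celastrol replicate 2 and control replicate 1 together (0.0554). Over 16 alternatives the adjusted p ran from 0.00686 to 0.0816.

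SLC25A4, the carrier of heart and skeletal muscle, had 23.9, 23.1 and 21.9 CPM with celastrol and 22.04, 21.5 and 21.01 CPM in controls. The groups overlapped and SLC25A4 was not called (0.09 ± 0.099, 95% interval -0.11 to 0.30, adjusted p = 0.458). Reads of SLC25A5 are uncertain to the extent that they are shared with its 9 annotated pseudogenes, as are those of SLC25A6 (6), SLC25A1 and SLC25A15 (5 each), SLC25A51 (3) and SLC25A3, SLC25A24 and SLC25A39 (2 each). It lies on chromosome X (119468444 to 119471396, GRCh38), 13966 bases from SLC25A43, a carrier with no settled substrate that was called lower as well.

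SLC25A6, the third ADP/ATP carrier, stood apart for its counts. Its counts were 75, 94 and 1324 in wells 1, 2 and 3 of celastrol and 109, 91 and 111 in those of the control. Celastrol replicate 3 was thus over 10 times each other library, while the other 2 celastrol wells lay at the level of the controls or below. The test gave a log2 fold change of 2.22 ± 1.40 (adjusted p = 0.269), and -0.35 without celastrol replicate 3 (adjusted p = 0.36), so no direction can be given. Over the 14 alternatives that gave one, the adjusted p ran from 0.203 to 0.66.

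SLC25A6 lies in the pseudoautosomal region, at 1386152 to 1392113 of chromosome X, a stretch with the same sequence on X and Y. Another 10 protein-coding pseudoautosomal genes had a mean of 10 to 300 counts. In all 10 of them, the highest count was at least 3 times the lowest within one of the groups (after adding 1), with a median ratio of 9.62. Of the 3124 other protein-coding genes in that range of counts, 16.5% reached that ratio, and their median was 1.72. VAMP7 had 315, 21 and 14 counts in celastrol wells and 145, 17 and 22 in control wells, and CD99 had 89, 88 and 486 against 307, 117 and 112. The library with the most counts differed between genes, and the sources used here do not give how the deposited counts treat reads that map to both chromosomes. Its part in the SLC25A6 values was not tested.

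**Figure D3:**
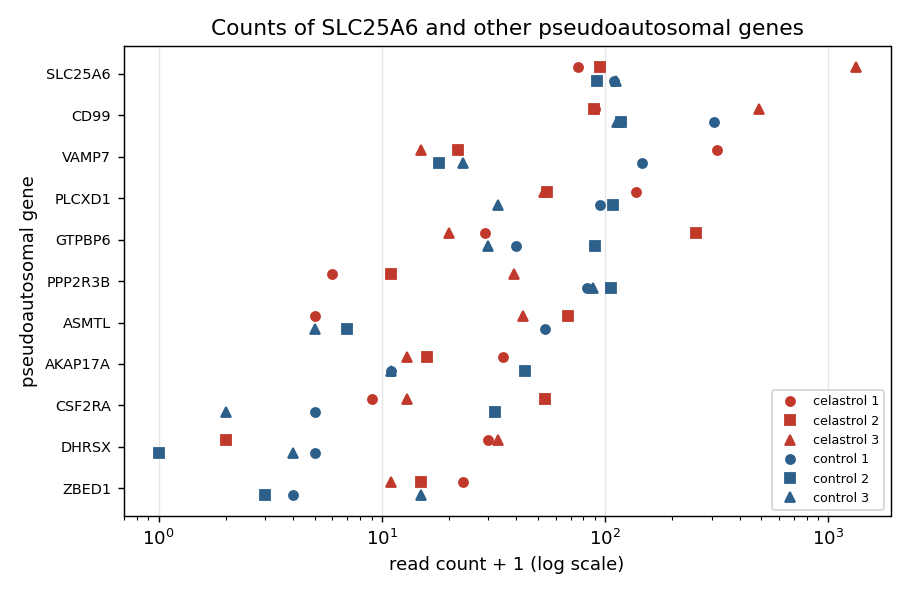
Read counts plus 1 on a log axis for SLC25A6 and the 10 other pseudoautosomal genes with a mean of 10 to 300 counts, in each of the 3 celastrol (red) and 3 control (blue) libraries, marked by replicate. SLC25A6 has 1 point at 1324 counts and 5 from 75 to 111, and the library that stands out changes from gene to gene.

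Phosphate enters the matrix through SLC25A3, and the ATP-Mg/phosphate carriers SLC25A23, SLC25A24 and SLC25A25, which bind calcium, set the size of the adenine nucleotide pool. SLC25A3 had 529.9, 499.6 and 536 CPM in celastrol wells and 528, 517 and 534 CPM in control wells (-0.01 ± 0.053, 95% interval -0.12 to 0.10, adjusted p = 0.87). The groups overlapped throughout. SLC25A23 had 72.1 ± 0.745 CPM with celastrol and 71.9 ± 0.891 CPM in controls (SD, n = 3 each) and was not called either (adjusted p = 0.958).

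The other 2 ATP-Mg/phosphate carriers moved in opposite directions. SLC25A25 had 20.4, 18.99 and 22.6 CPM in celastrol wells and 24.5, 35.7 and 34.3 CPM in control wells. It was lower in each celastrol well than in each control well, with control replicate 1 nearest to them (-0.61 ± 0.13, adjusted p = 0.000855). SLC25A25-AS1, opposite to 13.5% of its exon bases, had 172 to 213 counts in celastrol wells and 103 to 145 in control wells. SLC25A24 rose, from the same test (0.36 ± 0.098, adjusted p = 0.00588), with 63.5 ± 4.07 CPM in celastrol wells and 49.4 ± 7.93 CPM in control wells. Here too control replicate 1, at 58.3 CPM, lay nearest the celastrol wells. Of the FPKM summed over the 3 genes, SLC25A24 made up 39.3 ± 2.07% and 31.4 ± 4.77%, and SLC25A25 11.9 ± 1.19% and 18.7 ± 3.76%, in celastrol and control wells.

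Carriers related to the uncoupling proteins split as well. SLC25A27, also called UCP4 and best known from brain, had 5.88, 6.40 and 4.64 CPM with celastrol, against 10.2, 14.3 and 11.6 CPM in the control wells. No celastrol well reached the lowest control, and the fall to 46.9% of the control level was the largest in the family (-1.09 ± 0.17, adjusted p = 3.81e-05). SLC25A14, also called UCP5, rose, with 8.96, 9.24 and 9.64 CPM with celastrol and 6.19, 6.08 and 6.91 CPM in controls (0.54 ± 0.15, adjusted p = 0.00578). SLC25A30, a kidney-enriched relative, had 16.5 to 17.01 CPM in celastrol wells and 12.3, 18.8 and 19.9 CPM in control wells, which enclose the celastrol values (adjusted p = 0.943).

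All 5 tested members of the group of di- and tricarboxylate carriers were called, 3 higher and 2 lower. Of all genes tested 23.6% were called higher, 24.8% lower and 48.4% in either direction. The group includes SLC25A35, 1 of the 2 that fell, although its substrate is not settled. SLC25A1 exports citrate, the source of acetyl units for fat and sterol synthesis in the cytosol. It had 79.2, 80.6 and 72.7 CPM in celastrol wells and 115, 105 and 105 CPM in control wells, with no overlap (-0.49 ± 0.070, adjusted p = 1.84e-05). SLC25A35 had 6.67, 8.02 and 6.65 CPM in celastrol wells and 12.03, 13.6 and 10.9 CPM in control wells. It was lower in each celastrol well (-0.78 ± 0.15, adjusted p = 0.000304). RANGRF, which lies on the opposite strand, shares 33.2% of the exon bases of SLC25A35 and had 1360 to 1574 counts in celastrol wells and 981 to 1007 in control wells. The sources used here do not say whether counting used the strand, so the value of SLC25A35 is uncertain. Opposite-strand genes also share 15.1% of the exon bases of SLC25A5, 13.7% of SLC25A24 and 15.5% of SLC25A26.

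SLC25A11, SLC25A10 and SLC25A21 were the members of this group called higher. SLC25A11 takes oxoglutarate out of the matrix in exchange for malate, as part of the malate-aspartate shuttle. It had 83.3, 79.5 and 83.3 CPM with celastrol and 72.7, 61.8 and 60.6 CPM in controls, without overlap (0.33 ± 0.078, adjusted p = 0.00178). RNF167, opposite to 9.1% of its exon bases, had 4912 to 5084 counts in celastrol wells and 3612 to 3866 in control wells, and SLC25A11 itself had 3140 to 3344 and 2333 to 2797. SLC25A10, which exchanges malate or succinate for phosphate, had 46.01, 37.6 and 36.7 CPM in celastrol wells and 34.04, 29.1 and 28.3 CPM in control wells. The groups were apart (0.39 ± 0.10, adjusted p = 0.00443), but with celastrol replicate 1, the highest library, left out the gene was not called (0.28, adjusted p = 0.0541, the highest of 16 alternatives, the lowest being 0.000177). SLC25A10 shares 46.6% of its exon bases with an annotated transcript unit on the same strand. SLC25A21, a carrier of oxodicarboxylates, was scarce at 3.41 ± 0.467 CPM with celastrol and 2.03 ± 0.407 CPM in controls and was called higher (0.75 ± 0.25, adjusted p = 0.018). It was not called with celastrol replicate 2 left out (adjusted p = 0.0804) nor without control replicate 2 (0.0647) or 3 (0.0625), from a range of 0.0067 to 0.0804 over 15 alternatives, and by limma on log2(FPKM + 1) its log2 difference was 0.27 (adjusted p = 0.0154). SLC25A21 had 125 to 156 counts in celastrol wells and 68 to 96 in control wells, and 2 genes lie opposite to its exons. PAX9, at 13% of its exon bases, had 215 to 234 and 363 to 377 counts, and SLC25A21-AS1, at 15.8%, had 54 to 93 and 65 to 106, in celastrol and control wells.

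Of the carriers of amino acids, with the choline carrier SLC25A48 among them, 5 of 8 tested rose and 1 fell, and 23.6% and 24.8% of all genes tested did. SLC25A13, or citrin, moves aspartate out of the matrix and glutamate in, which completes the malate-aspartate shuttle. It had 50.1, 50.5 and 52.2 CPM in celastrol wells and 36.02, 30.1 and 29.1 CPM in control wells. The celastrol wells were close together and all above the controls (0.68 ± 0.092, adjusted p = 8.75e-06). Its relative SLC25A12, or aralar, the form of muscle and brain, had 56.3, 60.9 and 56.7 CPM with celastrol and 49.7, 50.7 and 51.3 CPM in controls (0.20 ± 0.075, adjusted p = 0.0376).

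The SLC25A12 call was fragile, and it was lost in 8 of 16 alternatives. These included the fits without celastrol replicate 1 (adjusted p = 0.0731), 2 (0.147) or 3 (0.0793), and without control replicate 2 (0.0806) or 3 (0.057), and over all 16 the adjusted p ran from 0.0135 to 0.147. SLC25A13 took 50.6, 48.9 and 51.5% of the FPKM summed over both genes in celastrol wells and 45.5, 40.6 and 39.5% in control wells. In FPKM the 2 genes were thus about equal in celastrol wells, and SLC25A12 was the more abundant in each control well. That equality depends on the lengths used, 4040 bases for SLC25A12 and 3506 for SLC25A13. In CPM, which uses no length, SLC25A12 was above SLC25A13 in each celastrol well too.

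SLC25A38, which carries glycine used to make haem, had 71.8, 65.7 and 74.1 CPM in celastrol wells and 49.7, 52.1 and 57.9 CPM in control wells (0.41 ± 0.080, adjusted p = 0.000433). SLC25A44 carries branched-chain amino acids and had 13.9, 13.4 and 13.7 CPM with celastrol and 9.62, 9.43 and 9.92 CPM in controls (0.50 ± 0.13, adjusted p = 0.00314). Neither gene overlapped between groups. The glutamate carrier SLC25A22 also rose (0.37 ± 0.072, adjusted p = 0.000362), and PANO1, with 87 to 111 counts in celastrol wells and 30 to 69 in control wells, lies opposite to 10.8% of its exon bases.

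The member that fell in this group was SLC25A29, a carrier of basic amino acids. It had 51.2, 40.3 and 51.4 CPM in celastrol wells and 63.8, 65.0 and 54.8 CPM in control wells (-0.36 ± 0.098, adjusted p = 0.00552). The groups were apart by a small gap, between the highest celastrol and the lowest control well. Without celastrol replicate 2 and control replicate 1 the log2 fold change was -0.22 (adjusted p = 0.0339, in a range of 0.000107 to 0.0438 over 16 alternatives). The ornithine carrier SLC25A15, with 55.1 ± 0.378 and 52.01 ± 4.25 CPM in celastrol and control wells, was not called (adjusted p = 0.405).

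The 2 tested members of the carnitine group had the largest called rises, with SLC25A20 close to SLC25A21 (0.75 ± 0.25) and SLC25A13 (0.68 ± 0.092). SLC25A20 exchanges acylcarnitines for carnitine and so brings fatty acids to oxidation. It had 18.1, 16.4 and 17.5 CPM in celastrol wells and 9.15, 10.7 and 10.5 CPM in control wells, 1.71-fold higher (0.78 ± 0.12, adjusted p = 5.61e-05). SLC25A45, a carrier linked to the uptake of methylated amino acids used to make carnitine, had 6.70, 6.94 and 6.54 CPM with celastrol and 2.60, 2.05 and 2.13 CPM in controls. It was 2.97-fold higher, and the groups were far apart (1.57 ± 0.19, adjusted p = 3.55e-06). SLC25A45 is a low-abundance gene, at 258 to 274 counts with celastrol and 78 to 100 in controls. On log2(FPKM + 1), where low genes are compressed, its log2 difference was 0.89 (adjusted p = 0.000107).

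**Figure D4:**
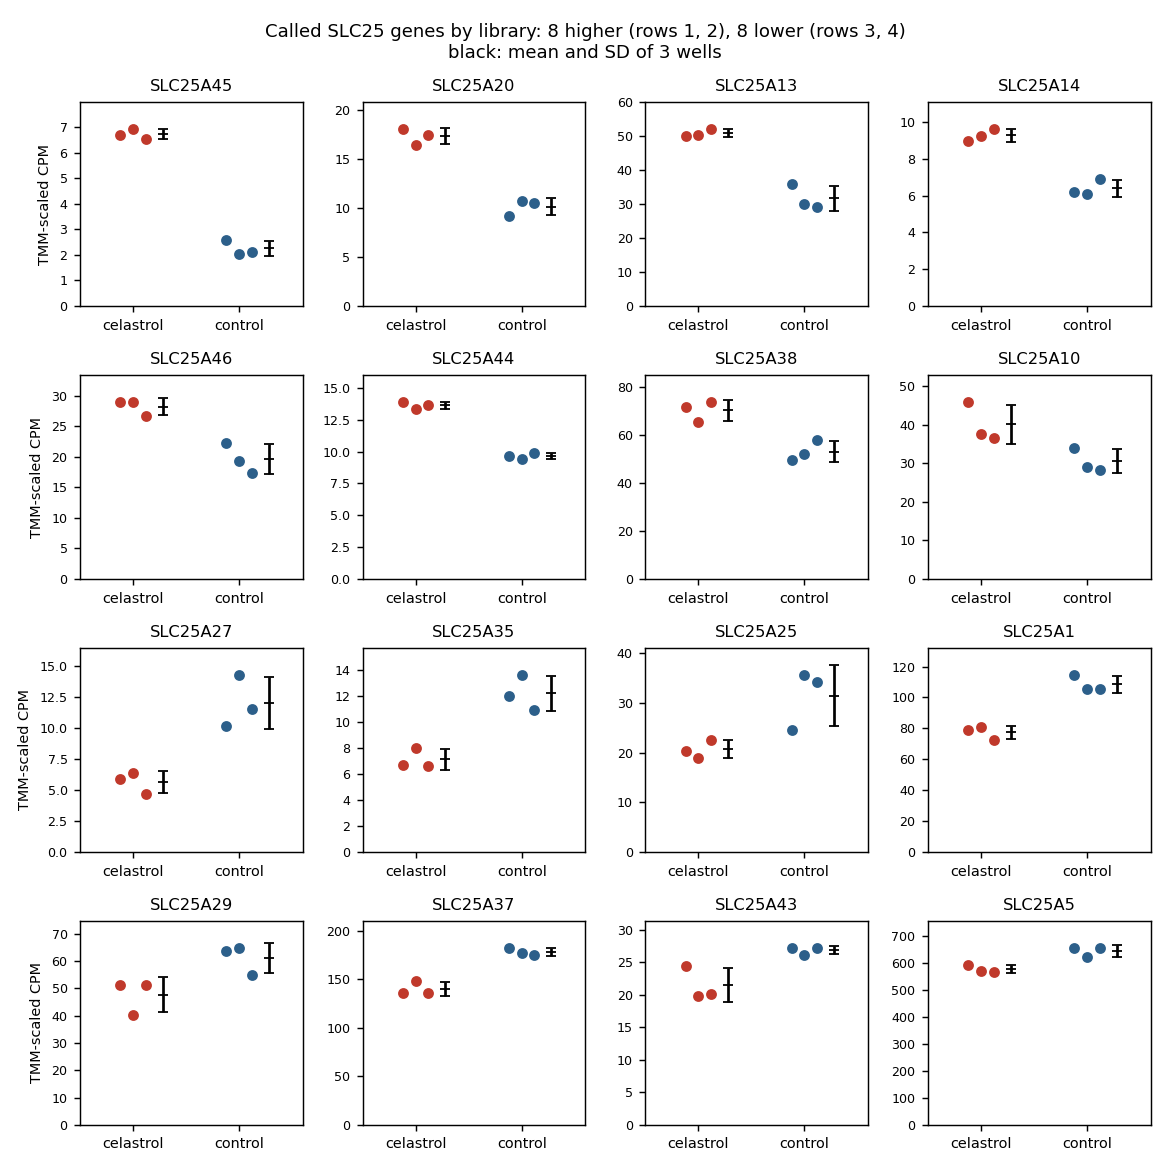
TMM-scaled CPM by well, celastrol (red) left of control (blue), for the 8 members with the largest called rises (rows 1 and 2) and the 8 with the largest called falls (rows 3 and 4) at a log2 CPM of at least 2, with the mean and SD of 3 wells in black and each axis from 0. In all 16 panels the 3 celastrol points lie on one side of the 3 control points, by the widest margin in SLC25A45.

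Carriers of nucleotides and cofactors had 0 called of 9 by edgeR's quasi-likelihood test, with 0 higher and 1 lower at an unadjusted p under 0.05 by edgeR, and 0 called by DESeq2 and by limma-voom. They include the peroxisomal carrier of cofactors SLC25A17, the carriers of S-adenosylmethionine (SLC25A26), folate (SLC25A32), pyrimidine nucleotides (SLC25A33 and SLC25A36) and NAD (SLC25A51), and SLC25A16 and SLC25A42, both linked to coenzyme A. Their log2 fold changes ran from -0.225 to 0.231, and 23.6% and 24.8% of all genes tested were called higher and lower.

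SLC25A33 came nearest, with 32.3, 27.9 and 31.1 CPM in celastrol wells and 30.9, 37.9 and 37.9 CPM in control wells (-0.23 ± 0.10, adjusted p = 0.071). It passed the threshold without control replicate 1 (-0.32, adjusted p = 0.00456), with at least 10 CPM required in 3 libraries (0.046), and without celastrol replicate 2 and control replicate 1 (0.0213). In the last of these SLC25A51 passed too (-0.34, adjusted p = 0.0386). Over 16 alternatives the adjusted p ran from 0.00456 to 0.247 for SLC25A33 and from 0.0386 to 0.574 for SLC25A51. SLC25A26 was higher in each celastrol well than in each control well but was not called (0.23 ± 0.12, adjusted p = 0.109).

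Iron reaches the matrix through the mitoferrins, where it is built into haem and iron-sulfur clusters. SLC25A37, or mitoferrin 1, had 136, 149 and 136 CPM in celastrol wells and 183, 177 and 175 CPM in control wells. It was lower in each celastrol well (-0.35 ± 0.062, adjusted p = 0.00017). SLC25A28, or mitoferrin 2, had 28.8, 28.7 and 24.1 CPM with celastrol and 25.6, 25.2 and 28.1 CPM in controls, which overlap (0.05 ± 0.10, 95% interval -0.17 to 0.26, adjusted p = 0.727). SLC25A37 made up 77.4 ± 1.59% of the FPKM summed over both in celastrol wells and 81.8 ± 1.12% in control wells.

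Glutathione enters the matrix through SLC25A39, with SLC25A40 as its relative. SLC25A39 had 127, 113 and 123 CPM in celastrol wells and 133, 129 and 127 CPM in control wells (-0.10 ± 0.065, 95% interval -0.23 to 0.04, adjusted p = 0.231). SLC25A40 was less abundant, at 2.05 ± 0.441 FPKM with celastrol and 1.72 ± 0.284 FPKM in controls (adjusted p = 0.351). SLC25A39 supplied 97.0 ± 0.511% and 97.5 ± 0.346% of the pair's FPKM in celastrol and control wells.

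**Figure D5:**
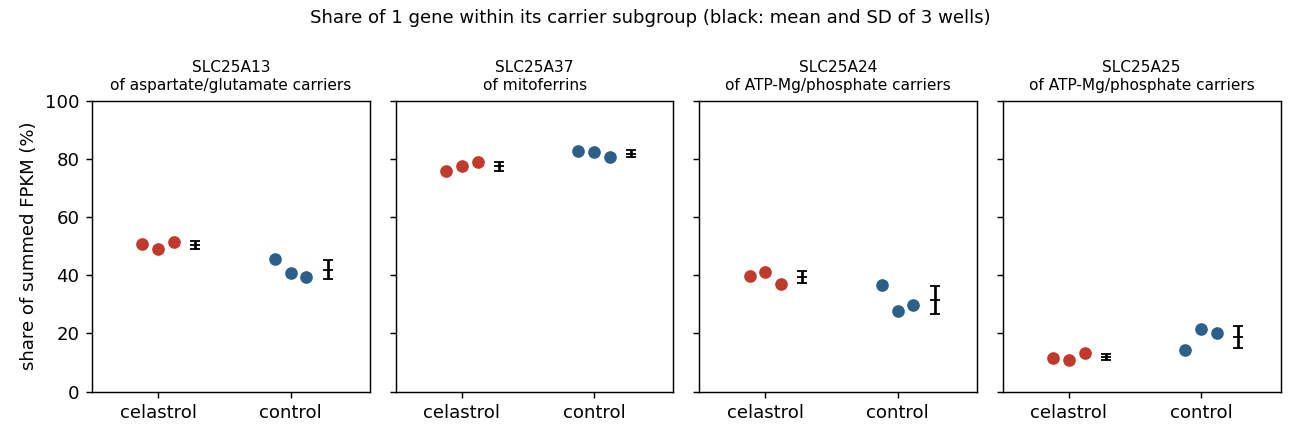
Share of summed FPKM held by 1 gene within its carrier subgroup, by well, celastrol (red) left of control (blue), with the mean and SD of 3 wells in black. SLC25A13 averages 50.3% in celastrol wells and 41.9% in control wells, and SLC25A37 averages 77.4% and 81.8%.

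Of the remaining members, SLC25A46, an outer membrane protein tied to mitochondrial fission and lipid transfer, rose, with 29, 29.01 and 26.6 CPM in celastrol wells and 22.3, 19.3 and 17.4 CPM in control wells (0.52 ± 0.11, adjusted p = 0.000649). SLC25A43 had 24.5, 19.8 and 20.2 CPM with celastrol and 27.2, 26.2 and 27.3 CPM in controls. Its fall (-0.32 ± 0.11, adjusted p = 0.0165) was not called without celastrol replicate 2 (adjusted p = 0.0761) or 3 (0.081), or without celastrol replicate 2 and control replicate 1 (0.0548), with a range of 0.00745 to 0.081 over 16 alternatives. SLC25A53, an orphan carrier, was not called (0.23 ± 0.17, adjusted p = 0.283).

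Promoters are shown for called members of both directions, SLC25A20 and SLC25A13, which rose, and SLC25A25 and SLC25A1, which fell. Sequences are RefSeq's for GRCh38.p14, 5′ to 3′ on the gene's strand, cut to the stretch of the 250 bases before the start site that holds no annotated exon. RefSeq start sites were found for 39 of 46 members, 49 sites in all. Capitals mark matches, on either strand and overlapping where they do, to the NRF1 motif, TGATGNAA (C/EBP-ATF), TGACNNNGC (antioxidant response), CACGTG (E-box), CCGGAAGT (ETS), CCAAT and GGGCGG (GC box).
SLC25A20 (chr3:48898994-48899132, minus strand): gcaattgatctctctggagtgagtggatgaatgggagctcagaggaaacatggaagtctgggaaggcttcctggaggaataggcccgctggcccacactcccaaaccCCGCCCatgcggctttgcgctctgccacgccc
SLC25A13 (chr7:96322148-96322348, minus strand): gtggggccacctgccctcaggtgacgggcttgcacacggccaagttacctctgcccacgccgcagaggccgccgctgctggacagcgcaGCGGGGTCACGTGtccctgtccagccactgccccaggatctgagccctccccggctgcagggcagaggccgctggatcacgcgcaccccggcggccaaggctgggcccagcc
SLC25A25 (chr9:128067982-128068122, plus strand, 1 of its 3 start sites): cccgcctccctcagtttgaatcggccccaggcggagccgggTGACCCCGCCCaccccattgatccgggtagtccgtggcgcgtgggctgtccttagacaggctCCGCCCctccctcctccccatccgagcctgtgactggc
SLC25A1 (chr22:19178831-19178986, minus strand): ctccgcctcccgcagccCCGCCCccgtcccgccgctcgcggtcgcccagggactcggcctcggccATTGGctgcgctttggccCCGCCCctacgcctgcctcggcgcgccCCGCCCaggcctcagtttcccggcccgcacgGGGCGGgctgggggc

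Over windows of 250 bases before to 50 after the start, the antioxidant response letters were found at 18.4% of the 49 member sites and at 13.4% of all 35091 sites. The E-box was found at 16.3% and 7.3%, the NRF1 motif at 8.2% and 5.8%, and the C/EBP-ATF letters at 2.0% and 3.6%. CCAAT was found at 44.9% of member sites and 34.6% of all sites, the GC box at 67.3% and 44.9%, and the ETS letters at 8.2% and 4.1%. E-box letters occurred in 4 of 13 members that rose, 0 of 6 that fell and 4 of 16 that were not called, and the antioxidant response letters in 5, 3 and 1 of these. In the same order the GC box occurred in 8, 6 and 14, CCAAT in 6, 4 and 10, and the ETS letters in 2, 0 and 2. The NRF1 motif occurred in 1, 0 and 2, and the C/EBP-ATF letters in 1, 0 and 0. A match is a run of letters and does not show that a factor binds there.

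Genes that act with the carriers were described from 11 lists chosen by function, with earlier results of these data known. Of their genes 76 were tested, 28 higher and 13 lower, where 23.6% and 24.8% of all genes tested were. Of the machinery that imports carriers, 9 of 13 genes rose and 0 fell (median log2 fold change 0.26), with 10 higher and 0 lower at an unadjusted p under 0.05 and 0 lower by DESeq2 and limma-voom. The small chaperones of the intermembrane space TIMM10 (0.88 ± 0.12, adjusted p = 7e-06), TIMM8B (0.76 ± 0.090, adjusted p = 2.33e-06), TIMM10B (0.67) and TIMM13 (0.61), which guide carriers to the inner membrane, were among them. So were TIMM22 (0.46), the channel that inserts carriers, and the outer membrane pore TOMM40 (0.45). Over 16 alternatives 7 to 11 of the 13 were higher and 0 lower, and 23.6% of all genes tested were called higher. TIMM10 had 33.6 CPM on average in celastrol wells and 18.3 CPM in control wells.

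A list of other mitochondrial carriers and membrane proteins, outside the SLC25 numbers, had 3 higher and 1 lower of 12 tested. In it 8.3% were lower and 33.3% called, against 24.8% and 48.4% of all genes tested, of which 23.6% were higher. The 12 include MTCH1 (adjusted p = 0.929) and MTCH2 (0.487), which were not called and are not inner membrane carriers. The sideroflexins SFXN5 (0.82), SFXN2 (0.71) and SFXN4 (0.41) rose and SFXN3 (-0.39) fell. SFXN1, the mitochondrial serine carrier (0.07, adjusted p = 0.384), the pyruvate carrier subunits MPC1 (-0.10, adjusted p = 0.479) and MPC2 (-0.02, adjusted p = 0.908), and the calcium uniporter MCU (-0.14, adjusted p = 0.295) were not called. UCP2 had 27.6 CPM in celastrol wells and 31.4 CPM in control wells (adjusted p = 0.0923). Of the outer membrane channels, VDAC2 was called lower (-0.16, adjusted p = 0.045) and VDAC1 and VDAC3 were not called. In 9 of 16 alternatives no channel was called lower, among them DESeq2, scaling by library size alone, and the fits that left out any 1 of the celastrol wells, control replicate 2 or control replicate 3, and in 4 alternatives 1 channel was called higher.

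Enzymes on either side of the carriers were called in both directions, and their counts stand against 23.6% higher and 24.8% lower among all genes tested. On the citrate route, ACLY, which splits citrate in the cytosol (-0.20 ± 0.056, adjusted p = 0.00679), and citrate synthase CS (-0.20 ± 0.060, adjusted p = 0.00958) fell along with SLC25A1, while the shuttle enzymes GOT1, GOT2, MDH1 and MDH2 were not called. Without celastrol replicate 3, 1 of the 6 was called lower. In the folate list 3 of 6 rose, among them mitochondrial SHMT2 (0.47 ± 0.080) and MTHFD2 (0.40 ± 0.068), beside a folate carrier SLC25A32 at 0.05 ± 0.079 (adjusted p = 0.604). Of the folate enzymes 2 were called higher without celastrol replicate 3, and 4 with scaling by library size alone. The value of SLC25A32 is uncertain, since it shares 69.7% of its exon bases with an annotated gene on the same strand and 11.1% with DCAF13 on the other. Of 7 iron users 4 rose and 2 fell, the cysteine desulfurase NFS1 (-0.65 ± 0.081) among those that fell. The count of those higher was 3 in each fit that left out celastrol replicate 1, celastrol replicate 3, control replicate 1 or control replicate 2.

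Counts in the next lists also stand against 23.6% higher and 24.8% lower among all genes tested. In the carnitine list ACADM rose (0.33) and CRAT, which shuttles acetyl groups to carnitine, fell (-0.85 ± 0.10, adjusted p = 2.74e-06), while CPT1A and CPT2, which load and unload carnitine, were not called. Without celastrol replicate 3 or control replicate 3, no gene of the list was called higher, ACADM included. Of 4 glutathione enzymes GSS (-0.28) and GSR (-0.23) fell, but the groups overlapped in GSR. Of these enzymes 1 was called lower in 7 of 16 alternatives, among them scaling by library size alone and the fits that left out celastrol well 1, celastrol well 3, control well 2 or control well 3. Pantothenate kinases PANK2 (0.92 ± 0.093, adjusted p = 3.99e-07) and PANK1 (0.63), which begin the synthesis of coenzyme A, and MAT2A (0.56), which makes S-adenosylmethionine, rose in a list of 7 with 3 higher. Ornithine and glutamate enzymes had 3 higher and 3 lower of 7, with ALDH18A1 at -0.34 among those that fell. The count of those lower was 1 without control replicate 3 and on both log2 FPKM scales, and 2 in 6 other alternatives, which include the fits that left out any 1 of the celastrol wells or control replicate 2. Among the nucleotide partners AK4 (0.53) and TYMS (0.22) rose and the mitochondrial RNA polymerase gene POLRMT (-0.40) fell, and the ATP synthase subunits ATP5F1A and ATP5F1B were not called.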

How the data were processed

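RNA of 6 wells was measured, 3 with celastrol and 3 controls, by poly(A) RNA-seq with a strand-marking kit, per the labels' protocols. The build was hg38, and HISAT2 2.2.1, StringTie 2.1.6, cutadapt 1.9, edgeR and DESeq2 are named with no role, per the submitters' processing notes. The sources used here give no annotation or counting settings. The deposited table of counts holds whole reads per gene, and the authors' deposited FPKM table scales them by gene length and library total (the same length in each library for 20198 of 20198 genes, within 1e-06).

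Genes were filtered with filterByExpr, scaled by TMM and tested with edgeR 4.0.16 (R 4.3.3), quasi-likelihood with robust dispersion, over 15387 genes with Benjamini-Hochberg adjustment. Standard errors come from the size of the log2 fold change and the root of its F statistic, and intervals are 95%. The procedure was tested on simulated data. Alternatives used limma 3.58.1, DESeq2 1.42.0, other scalings and filters, and fewer libraries. Within a group pairs of libraries differed beyond sampling noise, at 6.49 to 20.9 units of chi-square for each degree of freedom. The highest values, 18.3 and 20.9, were those of control replicate 1 with the other control wells. Each library counted as 1 replicate, though such an excess does not show that the wells were separate cultures. Reads carry no molecular identifiers, so limits from counts cover counting error only.

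The members, role groups and related lists were chosen with earlier results of these data known. Full values are given for the 8 largest called rises and falls at a log2 CPM of at least 2. They are also given for the 6 members with the highest mean FPKM in control wells, the ADP/ATP carriers and the mitoferrins. Other members named with full values were chosen after their values were seen. Positions are RefSeq's on GRCh38.p14, and exon overlaps, pseudogenes and pseudoautosomal genes come from GENCODE v29 on GRCh38, the assembly that hg38 names. Some genes, 1 SLC25 member among them, entered the fits and counts but are not reported here by name.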

Additional observations from a re-analysis of the deposited data

How the results depend on the processing

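Over 16 alternatives, 9 to 13 SLC25 genes were called higher and 6 to 9 lower, against 13 and 8, and both counts stayed within 1.5 times. The lowest count of rises came with at least 10 CPM required in 3 libraries, which left 33 members to test. Leaving out 1 library at a time gave 11 to 13 higher and 6 to 9 lower. Of the 21 called members, 16 were called in each alternative that tested them, and no called member turned direction. The exceptions were SLC25A5, SLC25A10, SLC25A12, SLC25A21 and SLC25A43, and SLC25A33 and SLC25A51 passed in some alternatives, at the values given above. Replicate numbers are shared between groups, and deviations of same-numbered wells correlated at 0.058, 0.055 and 0.034, under 0.1. With 3 wells in each group, correlations this low cannot decide whether same-numbered wells were paired. Every well correlated best with its own number, which is a hint from the data and not the design. The fit with a replicate block called 13 members higher and 8 lower, all of them the same genes, and 3831 and 3928 of all genes against 3634 and 3815. Scaling by library size alone moved the median of all genes by 0.041 on the log2 scale and gave 13 members higher and 7 lower. Depth limits the scarcest members: the standard error of the log2 fold change was 0.58 for SLC25A48 and 0.25 for SLC25A21, against 0.053 for SLC25A5. The largest, 1.40, was that of SLC25A6, which is less scarce than SLC25A48 and SLC25A21 and had 1324 counts in celastrol replicate 3.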
